A study of Homo sapiens with 30 samples.

Results

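Genes of amino acid supply were followed across the NB cell line SH-EP and its MYCN derivatives. The set holds 9 of the 26228 genes in the deposited expression table, taken by symbol: the transporter genes SLC1A5, SLC3A2, SLC7A1, SLC7A5, SLC7A6, SLC38A1, SLC38A2, and SLC43A1, and the glutamine synthetase gene GLUL. All 9 passed the filter on low values, which kept genes whose mean over the 30 libraries reached 1 FPKM (fragments per kilobase of transcript and per unit of sequencing depth). SH-EP is an established NB line without MYCN amplification or MYCN expression. The other lines are SH-EP cells that stably carry WT, T58A, S62A, or T58A S62A MYCN from a retroviral vector under an exogenous promoter. T58A and S62A replace phosphorylated residues of MYCN with alanine. All lines grew in DMEM with 10% FBS. Each line received DMSO or 1 μM CYC065, an inhibitor of CDK9 and CDK2, for 6 hours, and each of the 10 groups had 3 libraries. The labels number the replicates and do not say whether they were separate cultures, so p-values measure the spread between these libraries.

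Amino acids cross the plasma membrane through carriers with overlapping preferences. SLC1A5 (ASCT2) exchanges small neutral amino acids and takes up glutamine with sodium, and SLC38A1 (SNAT1) and SLC38A2 (SNAT2) load cells with glutamine and other neutral amino acids. SLC7A5 (LAT1) and SLC7A6 (y+LAT2) work only as pairs with the heavy chain SLC3A2 (CD98): LAT1 brings in leucine and other large neutral amino acids in exchange for an internal one such as glutamine, and y+LAT2 exchanges cationic amino acids with glutamine. SLC7A1 (CAT1) carries arginine and lysine, and SLC43A1 (LAT3) carries large neutral amino acids down their gradient. Leucine and arginine taken up in this way are sensed by the mTORC1 pathway. Although the set is named for glutaminolysis, its only glutamine enzyme, GLUL, makes glutamine from glutamate and ammonia. The enzymes that break glutamine down and those that use glutamate are counted as a list of their own.

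In GRCh37, the members lie at chr19:47278140-47291851, minus strand (SLC1A5), chr11:62623476-62656352, plus strand (SLC3A2), chr13:30083551-30169825, minus strand (SLC7A1), chr16:87863629-87903113, minus strand (SLC7A5), and chr16:68298419-68335726, plus strand (SLC7A6). The SNAT genes lie close together on chromosome 12, at chr12:46576846-46663800, minus strand (SLC38A1) and chr12:46751971-46766556, minus strand (SLC38A2). SLC43A1 lies at chr11:57252007-57283253, minus strand, and GLUL at chr1:182347233-182361341, minus strand.

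Promoter sequence is shown for 4 members that hold a motif of interest, of which SLC7A5, SLC1A5, and SLC38A1 rose in the MYCN lines and SLC43A1 did not. RefSeq windows on GRCh38, from 250 bases before to 50 after a transcript start, were matched for 9 of 9 members (16 windows). Both strands were searched for CACGTG, the canonical E-box to which MYC family proteins bind, and for TGATGNAA, the core of the amino acid response element to which ATF4 binds with a C/EBP partner. CACGTG was present in 3 of the 16 member windows, from 3 members, and in 7.26% of all 35116 windows. TGATGNAA was in 4 of the 16 member windows, from 4 members, and in 3.62% of all windows. No window of a member held both. The match is given in capitals, 5′ to 3′ on the strand of the gene, which is the minus strand for all 4. The windows are chr16:87869458-87869757 for SLC7A5, chr19:46787244-46787543 for an alternative start of SLC1A5, chr11:57515653-57515952 for SLC43A1, and chr12:46266467-46266766 for SLC38A1.
SLC7A5: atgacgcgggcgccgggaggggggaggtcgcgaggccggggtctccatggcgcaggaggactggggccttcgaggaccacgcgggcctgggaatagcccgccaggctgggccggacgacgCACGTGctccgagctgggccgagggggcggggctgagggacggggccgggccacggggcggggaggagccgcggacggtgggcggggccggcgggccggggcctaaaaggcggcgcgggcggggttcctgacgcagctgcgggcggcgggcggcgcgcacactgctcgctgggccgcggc
SLC1A5: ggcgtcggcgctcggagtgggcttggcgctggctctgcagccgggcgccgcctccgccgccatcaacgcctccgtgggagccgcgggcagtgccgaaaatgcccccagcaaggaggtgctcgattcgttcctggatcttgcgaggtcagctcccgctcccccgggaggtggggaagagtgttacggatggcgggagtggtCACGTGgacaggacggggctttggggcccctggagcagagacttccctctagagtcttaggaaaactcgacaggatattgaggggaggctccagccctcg
SLC43A1: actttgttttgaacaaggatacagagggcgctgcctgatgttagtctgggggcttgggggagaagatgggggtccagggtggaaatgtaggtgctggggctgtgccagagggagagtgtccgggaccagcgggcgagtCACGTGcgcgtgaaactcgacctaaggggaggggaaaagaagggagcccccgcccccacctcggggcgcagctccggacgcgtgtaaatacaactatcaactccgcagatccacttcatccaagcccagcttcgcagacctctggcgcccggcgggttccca
SLC38A1: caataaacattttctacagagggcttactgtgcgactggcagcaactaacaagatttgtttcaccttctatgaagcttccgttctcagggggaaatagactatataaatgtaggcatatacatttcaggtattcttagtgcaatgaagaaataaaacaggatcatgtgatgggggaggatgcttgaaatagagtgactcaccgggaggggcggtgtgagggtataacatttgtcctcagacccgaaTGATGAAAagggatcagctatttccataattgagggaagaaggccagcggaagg
The E-box began at -130 from the start of SLC7A5, -50 from that of SLC1A5, and -112 from that of SLC43A1, and the SLC38A1 element began at -4. The remaining matches of TGATGNAA lay at -97 of another start of SLC1A5, at 37 of SLC3A2, and at 7 of SLC7A1. These are matches of letters, and binding was not measured in these libraries. No window of SLC7A6, which rose in the MYCN lines, or of SLC38A2 or GLUL held either motif. The SLC1A5 window at chr19:46788545-46788844 held neither as well.

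The libraries were checked by the gene that defines the lines. MYCN was listed at 0 FPKM in all 6 SH-EP libraries and at 5.08 to 15.7 FPKM in the 12 DMSO libraries of the MYCN lines. MYC, of the same family, was at 4.94 ± 0.491 FPKM in SH-EP in DMSO (mean ± SD, n = 3). In the MYCN lines in DMSO its means ran from 0.446 FPKM in T58A to 1.60 in S62A. With CYC065 its mean was higher in every line, at 17.4 FPKM in SH-EP. In SH-EP, 6 of 6 mesenchymal NB markers reached 1 FPKM, whereas 0 of 6 adrenergic markers did, and 5 of these were at 0. Of markers of other cell types, 1 of 3 haematopoietic (CD68), 0 of 3 epithelial, and 0 of 2 endothelial genes reached 1 FPKM there. Read numbers are unknown, and low FPKM values place the DMSO libraries at 0.470 to 1 and the CYC065 libraries at 0.293 to 0.555 of the deepest. FPKM as deposited state the share that a gene takes of its library. Multiplied by a factor per library that equalises ERCC spike-ins added by cell number, they state a level per cell, although fewer cells and less RNA per cell cannot be told apart. The factors were 3.05 to 3.28 in SH-EP and 0.722 to 2.01 in the MYCN lines in DMSO. One T58A library in DMSO stood apart, with a factor of 1.2000 beside 1.91 and 1.94. The WT libraries in DMSO also differed, with factors of 1.13, 1.28, and 1.64. All 6 SH-EP libraries share their index sequences with libraries of MYCN lines, so line and sequencing pool cannot be told apart.

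In SH-EP cells in DMSO, SLC38A2 and SLC3A2 were the most abundant members, at 122 ± 4.10 and 120.3 ± 4.47 FPKM (mean ± SD, n = 3), and their ranges overlapped. SLC1A5 followed at 94.4 ± 1.93, SLC7A5 at 74.3 ± 5.28, and SLC7A1 at 44.3 ± 2.69 FPKM. A lower tier held SLC38A1 at 17.1 ± 0.571, GLUL at 15.5 ± 0.343, SLC7A6 at 7.93 ± 0.708, and SLC43A1 at 3.20 ± 0.320 FPKM. Each of the other neighbours in this order had ranges that did not overlap. Since FPKM are per length, these levels can be set beside each other, and SH-EP cells thus held the mRNA of the CD98 heavy chain above that of SLC7A5 or SLC7A6. The order of means changed in the MYCN lines. SLC3A2 was highest in all 4, and SLC38A2, with the highest mean in SH-EP, came after SLC1A5 in all 4. Ranges overlapped between SLC1A5 and SLC38A2 in WT and between SLC3A2 and SLC1A5 in T58A S62A.

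**Figure D1:**
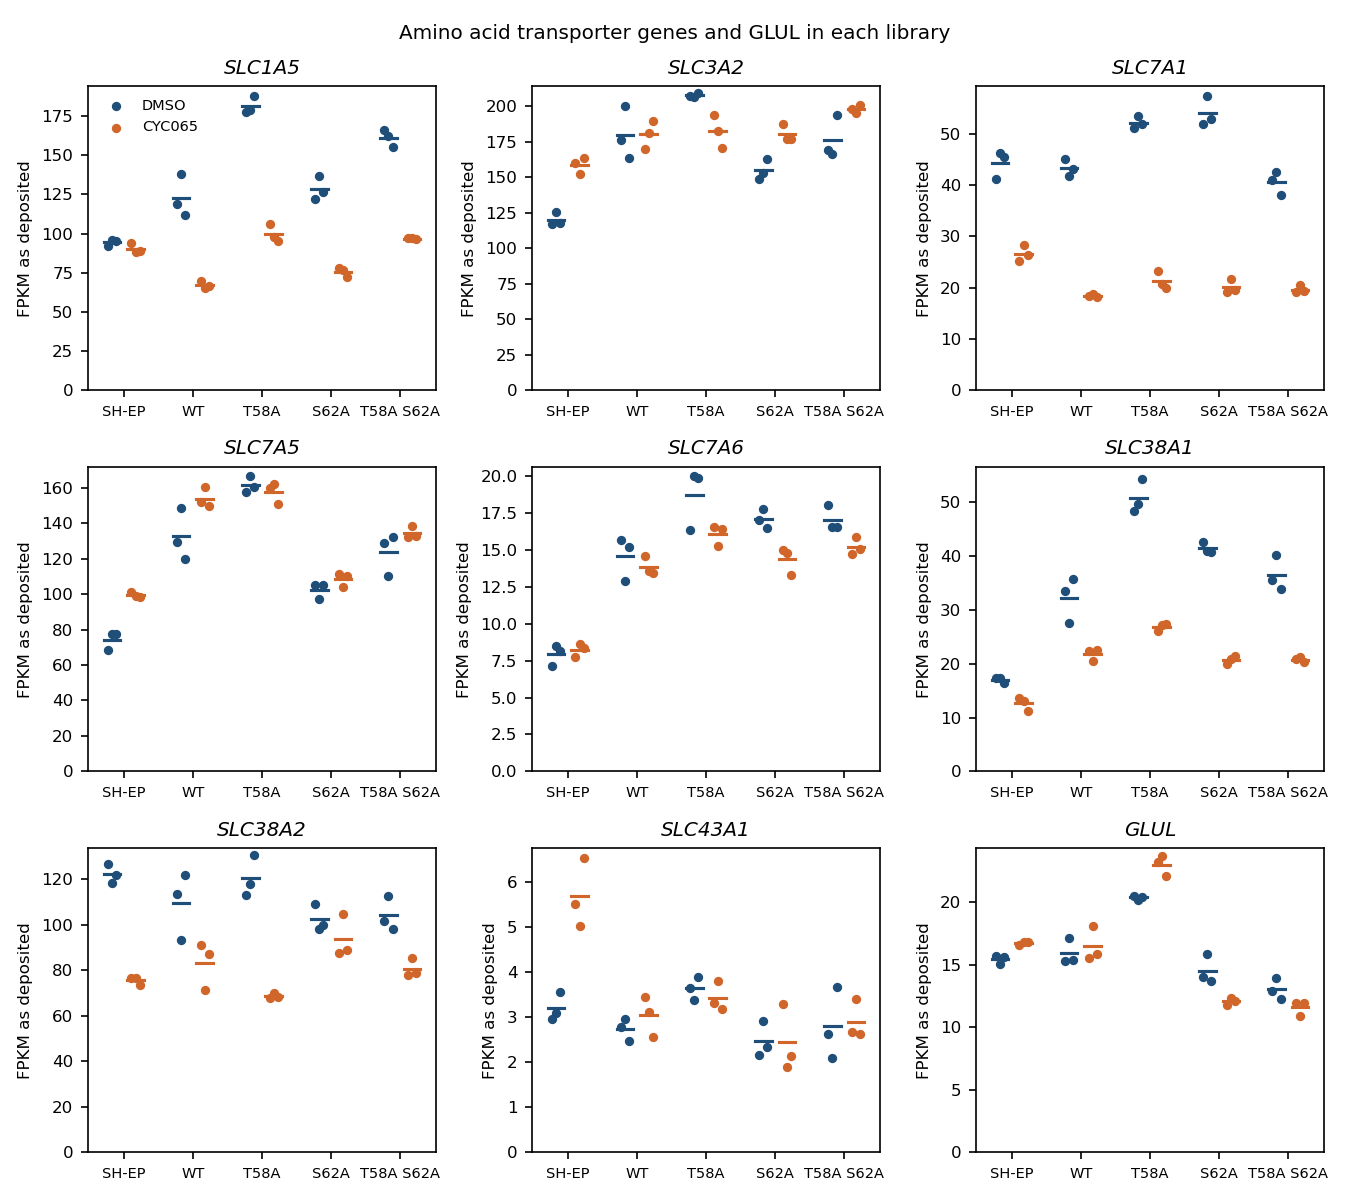
Each point is 1 library and each bar the mean of 3. The vertical axis of each panel is FPKM as deposited and starts at 0, and the horizontal axis gives the 5 lines in DMSO (blue) and in CYC065 (orange). In DMSO, all MYCN-line libraries of SLC1A5, SLC3A2, SLC7A5, SLC7A6, and SLC38A1 lie above all SH-EP libraries, whereas SLC7A1, SLC38A2, SLC43A1, and GLUL overlap with SH-EP in at least 1 line.

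The first comparison asked how the members differ between SH-EP and its MYCN derivatives in DMSO. As a share of the library, 5 of 9 members were higher in all 4 MYCN lines, SLC1A5, SLC3A2, SLC7A5, SLC7A6, and SLC38A1, beside 19.2% of the 11575 genes tested (limma, adjusted p under 0.05). None was lower in all 4 lines, beside 13.4%. Line by line, 5 members were higher in WT (background 31.6%), 6 in S62A (31%), 7 in T58A (30.9%), and 5 in T58A S62A (31.2%). Lower members numbered 0 in WT (background 22.6%), 1 in S62A (23.4%), 0 in T58A (23.3%), and 2 in T58A S62A (24.1%). The rise in all 4 lines thus took in the glutamine carrier SLC1A5 and 1 of the SNAT genes. It also took in the heavy chain with 2 of its light chains, SLC7A5 and SLC7A6. The arginine carrier SLC7A1 was higher only in T58A and S62A, and GLUL only in T58A. SLC38A2 and LAT3 were higher in no line.

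SLC38A1, the SNAT1 gene, had the largest mean change over the 4 lines, although SLC7A6 (1.10) was level with it in T58A S62A. Its 3 SH-EP libraries were at 16.4, 17.4, and 17.4 FPKM, and those of WT at 27.6, 33.5, and 35.7. T58A was at 48.3, 49.7, and 54.4 FPKM, S62A at 40.7, 40.8, and 42.6, and T58A S62A at 33.9, 35.6, and 40.2. Every MYCN-line library was above every SH-EP library, T58A was above all others, and T58A S62A and WT overlapped. The log2 changes were 0.91 (WT), 1.57 (T58A), 1.27 (S62A), and 1.09 (T58A S62A), with a standard error of 0.080 and adjusted p of at most 1.12e-09. SLC38A2, which lies close to it on chromosome 12, did not rise with it. Its SH-EP libraries were at 118, 122, and 127 FPKM, those of WT at 93.2, 114, and 122, and those of S62A at 98.0, 100.2, and 109. The ranges of SH-EP and WT overlapped, and SLC38A2 was lower in S62A, at -0.26 (adjusted p = 0.0197). T58A S62A, at -0.23, was lower as well (adjusted p = 0.0333). With the libraries of a group numbered in the order of the table, the S62A call was lost without S62A library 2 or 3 (-0.23 and -0.24) or SH-EP library 1 (-0.23). The T58A S62A call was lost without its own library 1 or 3 or SH-EP library 1 or 3 (-0.19 nearest to 0), and WT passed without its library 3 (-0.25).

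The system L light chain gene SLC7A5 stood at 68.2, 77.2, and 77.4 FPKM in SH-EP and 119.7, 129, and 149 in WT. In T58A it was at 158, 160.3, and 167, in S62A at 97.0, 105, and 105, and in T58A S62A at 110.2, 129, and 132 FPKM. T58A was again highest and S62A lowest of the MYCN lines, and WT and T58A S62A overlapped. The change was 2.18-fold in T58A (log2 1.12 ± 0.068, SE, adjusted p = 1.46e-12) and 1.38-fold in S62A (0.46 ± 0.068, adjusted p = 3.64e-06). SLC3A2, the heavy chain, had the same order of lines. Its libraries were at 117, 118, and 125 FPKM in SH-EP, 207, 208, and 209.7 in T58A, and 149, 153, and 163 in S62A. Its log2 changes of 0.58 (WT), 0.79 (T58A), 0.36 (S62A), and 0.55 (T58A S62A) were each smaller than those of SLC7A5 in the same line, although the difference between the genes was not tested. The other light chain, SLC7A6, was at 7.14, 8.14, and 8.51 FPKM in SH-EP, 12.9, 15.2, and 15.7 in WT, 16.4, 19.8, and 20.0 in T58A, 16.5, 17.003, and 17.7 in S62A, and 16.5, 16.6, and 18.0 in T58A S62A. No MYCN-line library of SLC7A6 came near the SH-EP range, and averaged over the 4 lines its log2 change came to 1.07 ± 0.065 (SE, 2.10-fold, adjusted p = 8.23e-13).

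SLC1A5, the ASCT2 gene, was at 92.2, 95.4, and 95.6 FPKM in SH-EP and at 112, 119, and 138 in WT. S62A, at 122, 127, and 136 FPKM, overlapped with WT. T58A S62A was above both at 155, 162, and 166 FPKM, and T58A above all at 178, 179, and 188. The log2 changes were 0.37 (WT), 0.94 (T58A), 0.44 (S62A), and 0.77 (T58A S62A) (SE 0.059, adjusted p from 2.67e-12 to 9.62e-06). SLC7A1, the cationic amino acid carrier, was at 41.2, 45.4, and 46.2 FPKM in SH-EP and 41.7, 43.2, and 45.1 in WT, ranges that overlapped. It was higher in T58A (0.24, adjusted p = 0.00314) and in S62A (0.29, adjusted p = 5.45e-04), with values of -0.030 in WT and -0.13 in T58A S62A that did not pass. GLUL split the lines: it was at 15.1, 15.6, and 15.7 FPKM in SH-EP, at 20.2, 20.4, and 20.5 in T58A (0.39, adjusted p = 1.45e-05), and at 12.2, 12.9, and 13.9 in T58A S62A (-0.25, adjusted p = 0.00209). SLC43A1, the lowest member, ranged from 2.09 to 3.89 FPKM over all DMSO libraries and passed in no line (adjusted p from 0.101 to 0.434).

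Per cell, the picture of the same genes differed. With spike-in scaling the median of all tested genes shifted against SH-EP by -1.16 (WT), -0.88 (T58A), -1.86 (S62A), and -0.75 (T58A S62A) on the log2 scale. On this scale 0 members were higher in all 4 lines (background 0.294%). SLC7A1, SLC38A2, SLC43A1, and GLUL were lower in all 4 lines (4 of 9 members, background 67.2%). SLC38A1 moved in opposite directions, higher in T58A (0.62, adjusted p = 0.00475) and lower in S62A (-0.67, adjusted p = 0.00157), so that its mean change of -0.034 (adjusted p = 0.831) describes neither line. SLC7A6 was lower in S62A (-0.84, adjusted p = 3.43e-04) and did not pass in the other lines, where it lay between -0.38 in WT and 0.28 in T58A. SLC1A5, SLC3A2, and SLC7A5 were lower in WT (-0.88, -0.68, and -0.42) and in S62A (-1.51, -1.59, and -1.49). None of these 3 passed in T58A (-0.010, -0.16, and 0.17) or in T58A S62A (-0.061, -0.28, and -0.099). Relative to the median of all genes, the 5 members that rose as deposited stood in the mean over lines above it, from 0.49 for SLC3A2 to 1.13 for SLC38A1, and the others lay between -0.25 for SLC38A2 and 0.014 for SLC7A1.

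**Figure D2:**
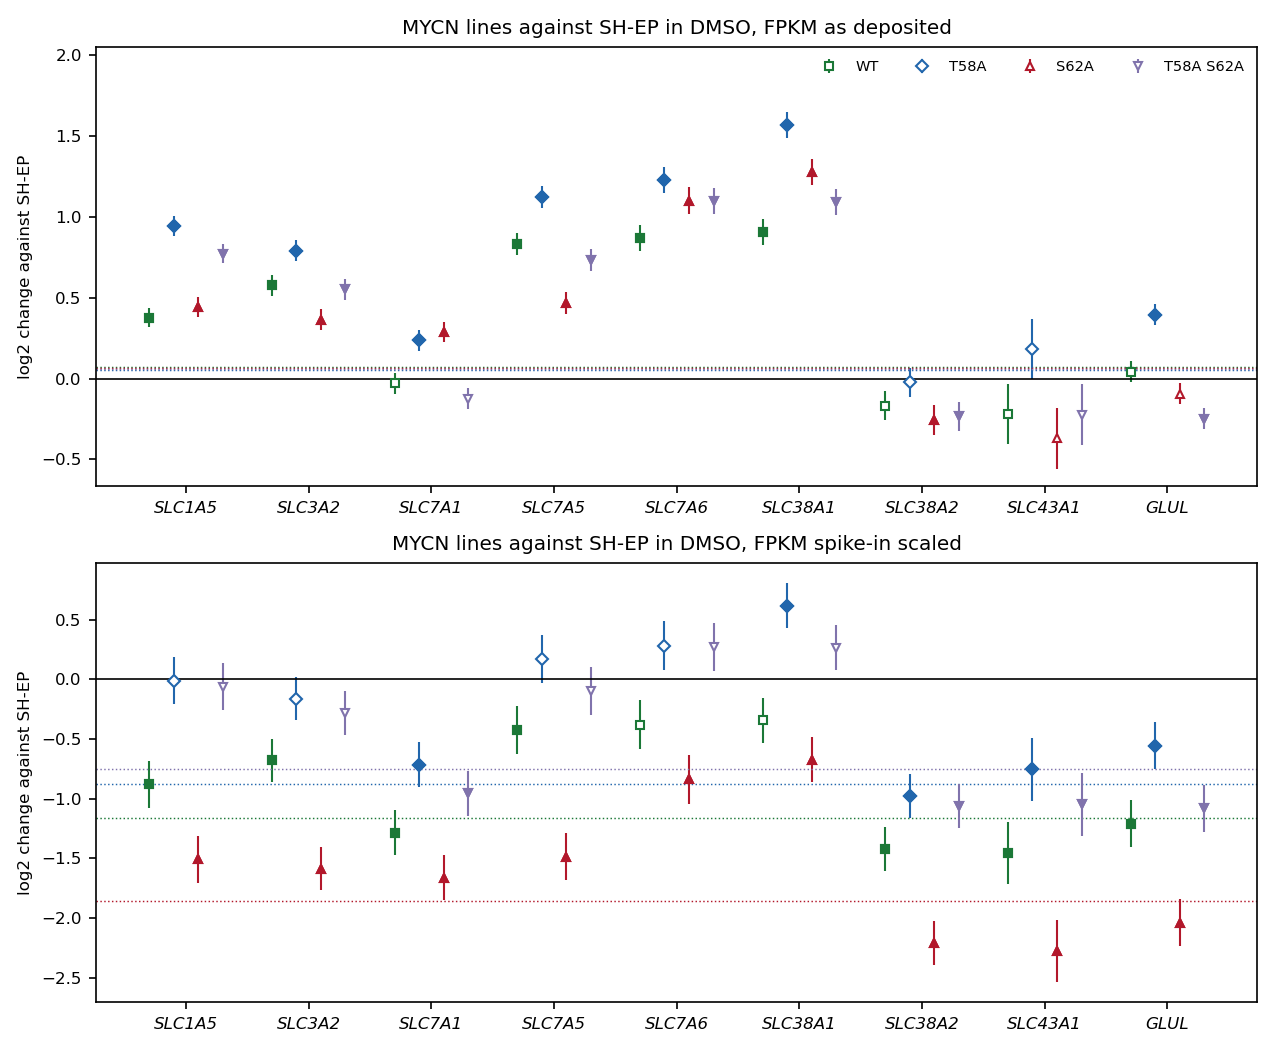
Log2 change in DMSO of each member from SH-EP to each MYCN line, as deposited (top) and with spike-in scaling (bottom), with standard errors from limma. Filled symbols passed the threshold, and dotted lines give the median of all tested genes in each line. The 5 members that rose as deposited have all 4 symbols filled above 0 in the top panel, whereas in the bottom panel most symbols lie below 0 and those of S62A are lowest for every member.

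The MYCN proteins of the 4 lines differ at residues 58 and 62, and the second comparison set them against each other in DMSO. Of 54 tests (9 members, 6 pairs of lines), 30 passed the threshold as deposited. Of the 4 lines, T58A had the highest mean of 8 members, all but SLC7A1. Against WT, T58A differed in 7 of 9 members (background 23.6%), and all 7 were higher in T58A. SLC38A1 was 1.58-fold higher (log2 0.66 ± 0.080, SE, adjusted p = 1.74e-06) and SLC1A5 1.48-fold higher (0.57 ± 0.059, adjusted p = 2.16e-07). With spike-in scaling these 2, SLC7A6, and GLUL passed, and SLC3A2 (adjusted p = 0.0715), SLC7A1 (0.0559), and SLC7A5 (0.0593) did not. MYCN itself was at 7.27 to 9.84 FPKM in T58A, below its 11.7 to 13.7 FPKM in WT. It was lowest in S62A, at 5.08 to 6.59 FPKM, and was at 9.06 to 15.7 FPKM in T58A S62A. The lines thus differ in MYCN level as well as in residues, and effects of these cannot be told apart here. ATF4, whose protein activates transporter genes when amino acids are short, was itself higher in T58A (0.33) and lower in S62A (-0.33) than in WT. Its level in DMSO was 106 ± 6.48 FPKM in SH-EP and 108 ± 7.06 in S62A (mean ± SD, n = 3). In WT it was 137 ± 18.3 FPKM, in T58A 170 ± 4.89, and in T58A S62A 126 ± 1.75. A link between ATF4 and the members was not tested.

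S62A against WT gave 5 of 9 members past the threshold (background 24.1%), in both directions. SLC7A5 (-0.37) and SLC3A2 (-0.21) were lower in S62A, and SLC38A1 (0.37), SLC7A1 (0.32), and SLC7A6 (0.23) were higher. The leucine carrier pair and the SNAT1 gene thus stood on opposite sides in the same libraries. T58A S62A against WT gave 3 of 9 (background 23.7%): SLC1A5 at 0.40, SLC7A6 at 0.23, and GLUL at -0.29. The SLC7A6 call (adjusted p = 0.0468) was lost in 17 of the 30 fits that left out a library (0.14 without WT library 2), and that of S62A against WT without WT library 2 (0.15) or any 1 of the S62A libraries. S62A against T58A gave 6 of 9 (background 32.8%), all lower in S62A, the largest being SLC7A5 at -0.66 ± 0.068 (SE, adjusted p = 6.22e-08). T58A S62A against T58A gave 5 of 9 (background 16.7%), all lower in T58A S62A, led by GLUL at -0.64, and with spike-in scaling 0 of these 5 passed (adjusted p from 0.215 to 0.870). T58A S62A against S62A gave 4 of 9 (background 30.7%), with SLC1A5, SLC3A2, and SLC7A5 higher in T58A S62A and SLC7A1 lower (-0.41). With spike-in scaling all 9 members had lower values in S62A than in WT, T58A, and T58A S62A, 2 of them against WT not past the threshold, beside a median shift of all genes of -0.71 against WT, and 5 of the pair calls changed sign. The heavy chain kept its call in S62A against T58A in all 30 fits that left out a library, and its other 4 pair calls were lost without WT library 3 in T58A against WT (0.15), WT library 2 in S62A against WT (-0.13), T58A S62A library 2 against T58A (-0.20), and T58A S62A library 3 against S62A (0.12), among others. SLC43A1 in S62A against T58A was lost without either of 2 libraries of each line (-0.47 without S62A library 1).

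Ratios of FPKM within a library do not depend on its scaling, and are given as a description. The ratio of SLC38A1 to SLC38A2 was 0.134, 0.137, and 0.147 in the 3 SH-EP libraries in DMSO, 0.293, 0.294, and 0.297 in WT, 0.416, 0.422, and 0.427 in T58A, 0.391, 0.406, and 0.417 in S62A, and 0.345, 0.349, and 0.356 in T58A S62A. SH-EP was apart from WT and WT from the mutants, with a spread within a line smaller than these steps. Transcripts of SNAT1 thus made up more of the SNAT pair in the MYCN lines, and most in T58A and S62A. After CYC065 the ratio was 0.167 ± 0.0137 in SH-EP (mean ± SD, n = 3), 0.392 ± 0.00898 in T58A, and 0.223 ± 0.0216 in S62A. It was thus above its DMSO range in SH-EP and below it in all 4 MYCN lines. The ratio of SLC7A5 to its heavy chain SLC3A2 moved less, from 0.617 ± 0.0369 in SH-EP to 0.736 ± 0.00661 in WT and 0.777 ± 0.0254 in T58A in DMSO. After CYC065 it was higher in WT (0.855 ± 0.0576) and T58A (0.866 ± 0.0362), and 0.628 ± 0.0253 in SH-EP. In S62A it went down, from 0.662 ± 0.0382 to 0.602 ± 0.0180, below its DMSO range. In T58A S62A it was 0.701 ± 0.0515 in DMSO and 0.679 ± 0.0256 after CYC065. The ratio of SLC1A5 to SLC7A5 fell out of its DMSO range with CYC065 in every line, from 1.27 ± 0.0673 to 0.908 ± 0.0196 in SH-EP and from 0.928 ± 0.00567 to 0.437 ± 0.0275 in WT.

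**Figure D3:**
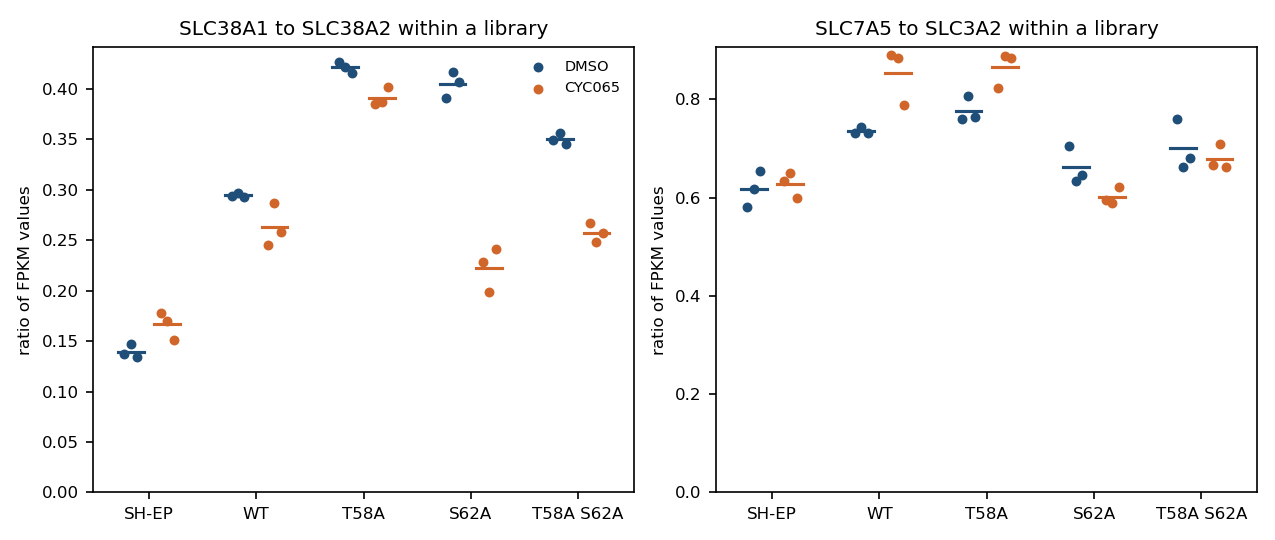
Ratio of 2 members' FPKM within each library (points) with the mean of 3 (bars), on axes that start at 0, for the 5 lines in DMSO (blue) and CYC065 (orange). The ratio of SLC38A1 to SLC38A2 (left) steps up from SH-EP over WT to the mutants in DMSO, and after CYC065 it is lower than in DMSO in the MYCN lines and higher in SH-EP.

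The third comparison set CYC065 against DMSO within each line, on spike-in scaled FPKM, the scale the study used for treatment. Most genes fell per cell, with a median change over the 5 lines of -1.195. Of the members, 8 of 9 fell in all 5 lines, beside 69.4% of all genes tested, and 0 rose in all 5, beside 0.501%. The exception was SLC43A1, which did not pass in SH-EP. Members lower were 8 of 9 in SH-EP (background 75.7%). All 9 were lower in each MYCN line, beside 93.7% of genes in WT, 90.2% in S62A, 84.2% in T58A, and 76.3% in T58A S62A, shares near those of all genes. What set the members apart from each other was the size of the fall. The mean changes over lines of SLC7A1 (-2.48), SLC38A1 (-2.08), SLC1A5 (-1.999), and SLC38A2 (-1.82) went beyond that of the median gene. SLC7A6 (-1.46), GLUL (-1.35), SLC3A2 (-1.22), SLC7A5 (-1.18), and SLC43A1 (-1.10) were closer to it.

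SLC7A1, the arginine and lysine carrier, had the largest mean fall of the 9 members. In WT cells its spike-in scaled level was 50.7, 55.2, and 68.6 in the DMSO libraries and 6.55, 7.78, and 8.77 in the CYC065 libraries. In SH-EP cells the levels were 135, 141, and 146 and 30.8, 35.8, and 40.8. The treatment groups did not overlap in any line. The log2 changes were -1.98 (SH-EP), -2.90 (WT), -2.91 (S62A), -2.48 (T58A), and -2.12 (T58A S62A) (SE 0.19, adjusted p of at most 3.85e-10), or 3.95-fold to 7.50-fold. As deposited SLC7A1 was lower in all 5 lines as well, from -0.73 in SH-EP to -1.42 in S62A, so that it lost share of the library and not only level per cell. Only SLC7A1 and SLC38A1 did so in all 5 lines (2 of 9, background 24.4%), and 0 of 9 members gained share in all 5 (background 28.5%).

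SLC38A1 and SLC38A2 also fell beyond the median gene in the mean. SLC38A1 changed per cell by -1.68 (SH-EP), -2.23 (WT), -2.48 (S62A), -2.10 (T58A), and -1.89 (T58A S62A), and SLC38A2 by -1.94 (SH-EP), -2.08 (WT), -1.63 (S62A), -2.001 (T58A), and -1.45 (T58A S62A). In S62A the 2 SNAT genes parted: as deposited SLC38A1 fell by 0.99 (adjusted p = 8.60e-11), from 40.7, 40.8, and 42.6 to 20.0, 20.9, and 21.4 FPKM. SLC38A2 there had a change of -0.13 (adjusted p = 0.204), with libraries at 98.0, 100.2, and 109 FPKM in DMSO and 87.7, 88.8, and 105 in CYC065 that overlapped. SLC1A5 per cell was at 134, 142, and 227 in WT in DMSO and 23.9, 29.4, and 30.6 in CYC065, and at 292, 303, and 307 and 104, 127, and 134 in SH-EP. Its groups did not overlap in either line, and its log2 changes were -1.31 (SH-EP), -2.55 (WT), -2.26 (S62A), -2.06 (T58A), and -1.81 (T58A S62A). As deposited, SLC1A5 fell in the 4 MYCN lines, from -0.74 in T58A S62A to -0.87 in WT, whereas in SH-EP the change was -0.064 (adjusted p = 0.331).

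The heavy chain and SLC7A5 fell per cell by amounts close to the median gene, -0.026 and 0.017 relative to it in the mean over lines. SLC7A5 per cell was at 145, 153, and 244 in WT in DMSO and 53.8, 63.8, and 75.0 in CYC065. As deposited the same libraries were at 119.7, 129, and 149 and 149, 152, and 160.3 FPKM, a change of 0.22 ± 0.068 (SE, adjusted p = 0.00614). In SH-EP the change as deposited was 0.42 for SLC7A5 (adjusted p = 5.59e-06) and 0.40 for SLC3A2 (adjusted p = 5.61e-06). In T58A the change was -0.19 for SLC3A2 (adjusted p = 0.0105) and -0.036 for SLC7A5, which did not pass. SLC43A1 was at 2.95, 3.10, and 3.56 FPKM in SH-EP in DMSO and 5.03, 5.51, and 6.52 in CYC065, a rise of 0.80 in share (adjusted p = 4.55e-04), and its change per cell in that line was -0.42 (adjusted p = 0.143). GLUL as deposited rose in T58A (0.17) and fell in S62A (-0.26) and T58A S62A (-0.17), and fell per cell in all 5 lines. Without the T58A library that stood apart in spike-ins, the falls per cell in T58A were larger, -2.72 for SLC7A1 and -1.47 for SLC7A5, and all 9 members kept their calls there.

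**Figure D4:**
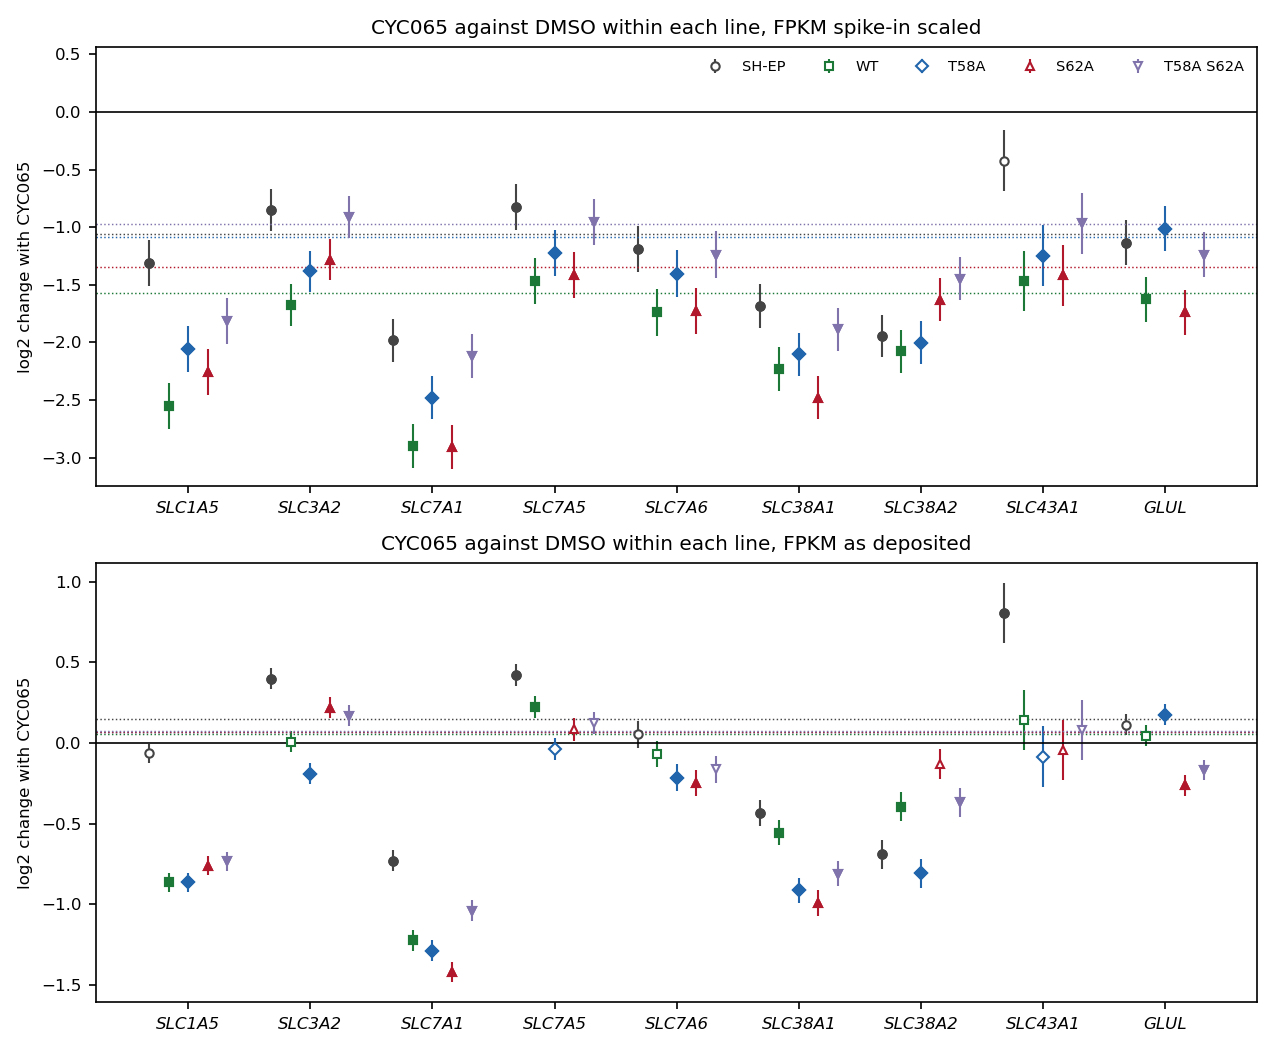
Log2 change with CYC065 against DMSO for each member in each of the 5 lines, with spike-in scaling (top) and as deposited (bottom), with standard errors from limma. Filled symbols passed the threshold, and dotted lines give the median of all tested genes in each line. SLC1A5, SLC7A1, SLC7A6, SLC38A1, and SLC38A2 lie below the median of each line on both scales. As deposited, SLC7A5 lies between -0.10 and 0.27 relative to it.

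An interaction term tested whether CYC065 changed a member more or less in a MYCN line than in SH-EP. With spike-in scaling 4 of 36 tests passed, all a larger fall in the MYCN line. In WT these were SLC1A5 (-1.23 ± 0.28, SE, adjusted p = 0.0162), SLC3A2 (-0.83 ± 0.26, adjusted p = 0.0366), and SLC7A1 (-0.92 ± 0.27, adjusted p = 0.0340), 3 of 9 members beside 16.3% of all genes. In S62A it was SLC7A1 (-0.93 ± 0.27, adjusted p = 0.0407), 1 of 9 beside 1.87%. In T58A (background 0.311%) and T58A S62A (0.199%) 0 of 9 passed. As deposited, 22 of 36 tests passed, 21 of them lower in the MYCN line: 3 members in WT (background 18.1%), 6 in S62A (13.7%), 6 in T58A (14%), and 6 in T58A S62A (14.8%). SLC1A5 and SLC7A1 passed in all 4 lines on that scale. The one test in the other direction was SLC38A2 in S62A, at 0.56 ± 0.13 (adjusted p = 0.00220). With spike-ins of at least 50 FPKM 0 of the 36 tests passed, and leaving out a library gave from 1 (without WT CYC065 library 1 or 3, any SH-EP DMSO library, or SH-EP CYC065 library 1 or 2) to 9 (without T58A DMSO library 1, which stood apart in spike-ins).

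SLC7A5 has copies in the genome that are listed as genes of their own. SLC7A5P1 was at 1.39, 1.65, and 3.18 FPKM in WT in DMSO and 9.02, 9.80, and 10.8 in CYC065, and SLC7A5P2 at 0.290, 0.307, and 0.329 and 1.80, 2.06, and 2.16 FPKM. Both lay far below SLC7A5, and both rose as a share of the library in WT, by 2.28 (adjusted p = 1.22e-06) and 2.36 (adjusted p = 1.23e-04) on the log2 scale, where the change of SLC7A5 was 0.22. Reads of near-identical copies can be split between them, so that the values of SLC7A5 and its copies are uncertain to that extent.

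Over the 10 group means of log2(FPKM + 0.1) as deposited, the members did not all share a pattern. The heavy chain followed SLC7A5 and SLC7A6, with a Pearson r of 0.89 for SLC3A2 and SLC7A5 and 0.75 for SLC3A2 and SLC7A6. SLC7A1 followed SLC38A2 (0.81) and SLC1A5 (0.79), and the values for SLC7A1 and SLC7A5 (-0.29) and for SLC38A2 and SLC7A5 (-0.33) were negative. SLC38A1 lay between these groups, with 0.84 for SLC7A6, 0.79 for SLC1A5, and 0.60 for SLC7A1. Of all tested genes, the most alike in pattern were RERE for SLC1A5 (0.967), MTHFD2 for SLC3A2 (0.937), UVRAG for SLC7A1 (0.990), IGF2 for SLC7A5 (0.980), LIG3 for SLC7A6 (0.979), NHEJ1 for SLC38A1 (0.977), ZFAND5 for SLC38A2 (0.974), RBFOX2 for SLC43A1 (0.947), and SVIL-AS1 for GLUL (0.938). MTHFD2 is a mitochondrial enzyme of folate metabolism, and GPT2, a glutamate-using transaminase, was among the 3 most like SLC38A1 (0.971). These are descriptions over 10 points that share libraries and depth, picked as the highest of 11575 genes.

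The other genes of amino acid supply were counted in 7 lists of 120 genes, of which 98 could be tested. Together 29 were higher in all 4 MYCN lines as deposited (29.6% beside 19.2% of all genes) and 12 lower (12.2% beside 13.4%). With spike-in scaling 0 were higher and 57 lower in all 4, where 67.2% of all genes were lower. Their median change over the MYCN lines was 0.15, and that of all tested genes 0.063. With CYC065, 72 of 98 fell per cell in all 5 lines (73.5% beside 69.4%), with a median of -1.06 beside -1.195.

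Among other plasma membrane carriers, 14 of 24 genes were too low to test, and 5 of 10 tested were higher and 2 lower in all 4 lines. These are 50% and 20%, beside 19.2% and 13.4% of all genes. SLC6A15, a neutral amino acid carrier, rose from 2.06 ± 0.238 FPKM in SH-EP to 7.45 ± 0.568 in WT (mean ± SD, n = 3), with a mean log2 change of 1.97 over the 4 lines (adjusted p = 2.16e-14). The cationic carrier SLC7A2 (1.46) and the glutamate carrier SLC1A3 (1.18) also rose, as did the cystine and glutamate exchanger SLC7A11, from 31.9 ± 1.66 FPKM in SH-EP to 43.6 ± 4.72 in WT. SLC38A4, a further member of the SNAT family (-1.78), and SLC7A8, another light chain of CD98 (-1.02), fell. SLC7A8 was at 7.25 ± 0.167 FPKM in SH-EP and 3.34 ± 0.133 in WT. The light chains of CD98 thus moved in both directions, with SLC7A5, SLC7A6, and SLC7A11 higher and SLC7A8 lower in all 4 lines.

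Of glutaminolysis and glutamate metabolism, 5 of 15 tested genes were higher and 2 lower in all 4 lines. These are 33.3% and 13.3%, beside 19.2% and 13.4% of all genes. The aspartate transaminase GOT2 was at 66.7 ± 1.37 FPKM in SH-EP and 112 ± 4.28 in WT in DMSO, and glutamate dehydrogenase, GLUD1, at 32.9 ± 0.792 and 44.5 ± 1.95. Higher were the glutathione synthesis gene GCLC (1.27 ± 0.19, SE), the serine synthesis transaminase PSAT1 (1.19 ± 0.049), and the alanine transaminase GPT2 (1.13 ± 0.10), and OGDH (-0.32), of the citric acid cycle, was lower. With CYC065 this list fell per cell in all 5 lines in 8 of 15 genes (53.3%, below the 69.4% of all genes). Share was gained in all 5 lines by 10 of 15 (66.7% beside 28.5% of all genes). GOT2 in WT was at 179 ± 6.32 FPKM after CYC065. GCLC went the other way, with a mean change of -4.34 per cell and -3.04 as deposited.

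Of the enzymes that use glutamine as a nitrogen donor, 7 of 13 were higher and 0 lower in all 4 lines. These are 53.8% and 0%, beside 19.2% and 13.4% of all genes. The NAD synthetase gene NADSYN1 had the largest mean change (1.19), followed by the purine synthesis gene PFAS (0.82) and the pyrimidine synthesis gene CAD (0.67). CAD was at 23.7 ± 1.42 FPKM in SH-EP and 35.9 ± 2.12 in WT. ASNS, the asparagine synthetase gene, was at 28.2 ± 0.193 FPKM in SH-EP, 26.5 ± 1.92 in WT, and 45.4 ± 2.58 in T58A in DMSO. With CYC065, 10 of 13 fell per cell in all 5 lines (76.9% beside 69.4% of all genes). Mean changes were -2.23 for QRSL1, -1.54 for CAD, and -1.52 for GMPS.

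For the remaining lists, the shares of all genes to set beside them are 19.2% higher and 13.4% lower in all 4 lines. Mitochondrial carriers gave 4 of 10 higher (40%) and 1 lower (10%). Among them were SLC25A13, a carrier of aspartate and glutamate (0.70), and the citrate carrier SLC25A1 (-0.97). The list set up for lysosomal and endosomal carriers and sensors gave 0 of 11 higher and 3 lower (27.3%). The lower genes were the sialic acid carrier SLC17A5 (-1.37), SLC38A6 (-0.69), and SLC38A10 (-0.57). SLC38A6 and SLC38A10 were placed there by the list, and where their proteins lie was not examined, so the share describes the list and not lysosomal carriers as such. Branched-chain amino acid metabolism gave 3 of 8 higher (37.5%), with the cytosolic transaminase BCAT1 at 0.59, and 2 lower (25%). In amino acid sensing to mTORC1, 5 of 31 were higher (16.1%) and 2 lower (6.45%) in all 4 lines, both below the shares of all genes. The leucine sensor gene SESN2 was at 0.84 and its paralog SESN3 at -2.03. SESN3 was at 4.05 ± 0.685 FPKM in SH-EP and 1.56 ± 0.394 in WT.

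With CYC065, falls per cell in all 5 lines numbered 8 of 10 other plasma membrane carriers (80%) and 8 of 10 mitochondrial carriers (80%). In the lysosomal and endosomal list they numbered 8 of 11 (72.7%). They numbered 6 of 8 genes of branched-chain metabolism (75%) and 24 of 31 of mTORC1 sensing (77.4%). These shares were near the 69.4% of all genes. The lysosomal genes PQLC2 (-3.50), SLC38A9, an arginine sensor (-2.83), and CTNS, the cystine carrier (-2.39) fell well beyond the median gene. So did the mitochondrial carriers SLC25A29 (-3.39) and SLC25A12 (-2.93), the branched-chain phosphatase gene PPM1K (-2.46), and MIOS (-3.46), FLCN (-3.40), and C12orf66 (-3.23) of the sensing machinery. No list gene rose per cell in all 5 lines, although SESN2 had a mean change of 0.86 (adjusted p = 1.85e-09).

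**Figure D5:**
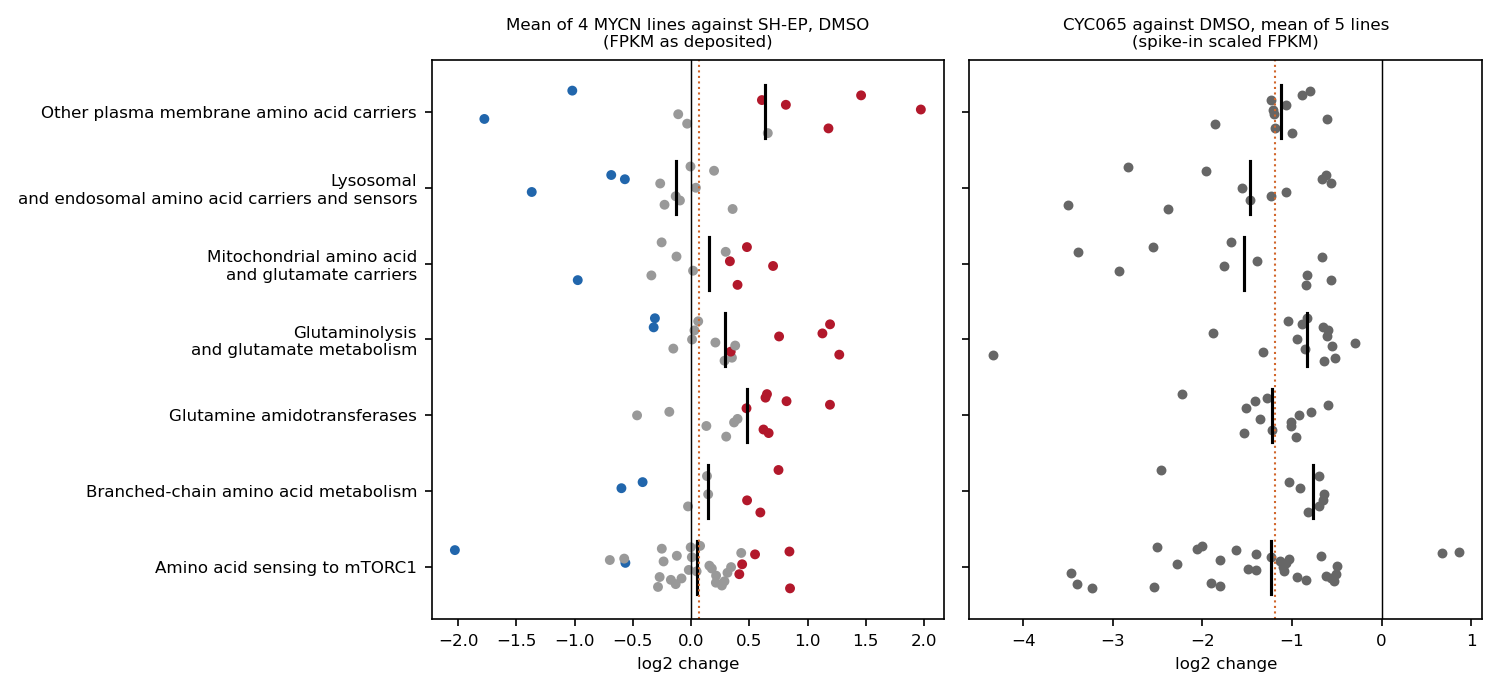
Each point is 1 tested gene of the 7 lists. The horizontal axis is the mean log2 change over the 4 MYCN lines against SH-EP as deposited (left) or the mean log2 change with CYC065 over 5 lines with spike-in scaling (right). Red and blue mark genes higher and lower in all 4 lines, grey the others on the left, black bars are list medians, and the dotted line is the median of all tested genes, 0.063 on the left and -1.195 on the right.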

How the data were processed

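The authors mapped strand-specific poly(A) RNA-Seq reads to hg19/GRCh37 (HISAT2) and deposited FPKM from Cufflinks, with the annotation not given in the sources used here. The deposited FPKM are not scaled to the 92 ERCC spike-ins and hold no counts, so no counting interval is given. For treatment, FPKM were scaled until the median log2 level of 55 spike-ins (mean of 1 FPKM or more) was equal in all libraries. The 11575 genes that reached a mean of 1 FPKM entered limma (version 3.58.1, R 4.3.3) as log2(FPKM + 0.1), which understates changes of low genes. A fit over the 10 groups used eBayes (trend = TRUE) and two-sided tests, with Benjamini-Hochberg adjustment over all tested genes per contrast and a threshold of 0.05. An exact test of 3 against 3 cannot give a p under 0.1. Within groups, libraries correlated at 0.925 to 0.959. The scripts were tested on simulated data. The members and lists were chosen with earlier results of these data known. Named were the members, MYCN, MYC, and ATF4, and the genes most like each member. Up to 3 genes per list and direction were also named, among genes past the threshold in every line. These had the largest mean change against SH-EP or the largest deviation from the median change with CYC065. CDK9 was chosen for context too, and its values are not reported here. GOT2, GLUD1, ASNS, and the SLC7A5 copies were named after their values were seen. Some results of list genes are not reported here. Pseudocounts of 0.01 and 1, filters of 0 and 5 FPKM, the other scaling, centring on the median gene, spike-ins of at least 50 FPKM, fits restricted to the compared groups, a minimum fold of 1.5, and leaving out each library were tried as alternatives.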

Additional observations from a re-analysis of the deposited data

Results flagged for a closer look

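A difference between groups flagged 4 interaction tests on spike-in scaled FPKM, in which CYC065 lowered a member more in a MYCN line than in SH-EP (limma, 3 libraries in each of the 4 groups of a test). The values were -1.23 for SLC1A5 in WT (adjusted p = 0.0162), -0.83 for SLC3A2 in WT (adjusted p = 0.0366), -0.92 for SLC7A1 in WT (adjusted p = 0.0340), and -0.93 for SLC7A1 in S62A (adjusted p = 0.0407). Beside them, the median of all tested genes moved by -0.52 in WT and -0.29 in S62A, and relative to it the values were -0.71, -0.31, -0.40, and -0.63. As deposited all 4 also passed, at -0.80, -0.39, -0.49, and -0.69. With spike-ins of at least 50 FPKM, 0 of the 4 passed.

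Leaving out 1 library ended the SLC1A5 call in 2 of 30 fits, those of SLC3A2 and SLC7A1 in WT in 8 each, and that of SLC7A1 in S62A in 11. The adjusted p then ranged from 0.00387 to 0.0553 for SLC1A5, 0.0130 to 0.150 for SLC3A2, 0.0101 to 0.126 for SLC7A1 in WT, and 0.0107 to 0.133 for SLC7A1 in S62A. The log2 values stayed within -1.38 to -0.99, -0.96 to -0.60, -1.02 to -0.79, and -1.03 to -0.79. Libraries whose absence ended calls were of SH-EP in DMSO and CYC065, WT in DMSO and CYC065, and S62A in DMSO and CYC065. Every WT call ended without WT DMSO library 2 alone (adjusted p = 0.0535 for SLC1A5, 0.150 for SLC3A2, and 0.126 for SLC7A1). That library had a spike-in factor of 1.64, beside 1.13 and 1.28 in the other WT libraries in DMSO. Without WT CYC065 library 3, every WT call ended as well. Without the T58A library in DMSO that stood apart in spike-ins, 9 of 36 tests passed, SLC1A5 in T58A among them (-0.98, adjusted p = 0.0371).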

How the results depend on the processing

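Scaling moved most results. With spike-in scaling, 0 members were higher and 4 lower in all 4 MYCN lines, and 0 list genes were higher and 57 lower. The mean change against SH-EP became -1.22 for GLUL, -0.62 for SLC1A5, -0.034 for SLC38A1, -0.68 for SLC3A2, -1.15 for SLC7A1, -0.46 for SLC7A5, and -0.17 for SLC7A6. Of the 26 calls of a member in a line, 4 kept direction and threshold, 4 lost the threshold, and 18 changed sign. Between S62A and WT, SLC38A1 became -0.33, SLC7A1 -0.38, and SLC7A6 -0.46. GLUL in T58A S62A minus WT became 0.13, and SLC7A1 in T58A S62A minus S62A 0.71. CYC065 on FPKM as deposited left 2 members and 17 list genes lower and 38 list genes higher in all 5 lines, with 22 interaction tests, and gave mean changes of 0.12 for SLC3A2, 0.18 for SLC43A1, and 0.16 for SLC7A5. Centring libraries on their median gene left 2 members and 16 list genes lower and 45 list genes higher, with 22 interaction tests, and gave 0.15 for GLUL, 0.29 for SLC3A2, 0.34 for SLC43A1, 0.33 for SLC7A5, and 0.036 for SLC7A6. Spike-ins of at least 50 FPKM left 0 interaction tests. A fit of only the groups compared, with fewer samples, left 17 of the pair tests among MYCN lines. Requiring 1.5-fold left 2 members (SLC7A6 and SLC38A1) higher in all 4 lines, 3 pair tests, and 12 list genes higher and 5 lower. Leaving out each library in turn gave 1 to 9 interaction tests and 0 to 1 list genes higher with CYC065. The counts of 5 and 8 members were the same in all 30 of these fits. The pseudocounts and filters kept all 26 line calls, and all CYC065 calls of the members tested, but each of 3 settings left 3 of the 4 interaction calls: a pseudocount of 1 (without SLC7A1 in S62A), no filter, and only the groups compared (both without SLC3A2 in WT). No paired analysis was possible because the columns are numbered 0 to 2 and the labels 1 to 3, so that no column is tied to a numbered replicate. Read depth is unknown, so no counting error can be given for SLC43A1, the lowest member.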
